A study of Mus musculus with 9 samples.

Results

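The genes described are 43 genes of hepatic glucose metabolism: the enzymes of glycolysis and gluconeogenesis, the glucose transporters, the enzymes and targeting proteins of glycogen, and the pentose phosphate enzymes. They were picked by symbol, and 42 of the 43 were among the 16755 genes of the deposited table; Eno2, the neuronal enolase, was not analysed here. Poly(A) RNA of mouse liver had been sequenced in 3 groups of 3 male C57BL/6 mice. In all 9 mice loxP sites flanked the third exon of Scd2 (Scd2f/f). The first group was untreated Scd2f/f by its titles and characteristics, which were followed, although the treatment text of its 3 samples repeats that of the treated mice. The second was Scd2f/f given the carcinogen diethyl nitrosamine (DEN, 10 mg/kg at 2 weeks of age) and, from 6 weeks of age, Western alcohol diet (WAD), which is fed as a liquid and supplies ethanol beside lard and cholesterol. The labels give 4 months of diet. The third was Scd2f/f;Col1a1-Cre (Scd2f/f;CC) given the same DEN + WAD. Cre under the Col1a1 promoter acts in stellate cells and portal fibroblasts, so the deletion was directed at those cells and not at hepatocytes. The labels call the tissue liver, and the study describes the DEN + WAD samples as tissue next to tumors.

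The liver takes up glucose after a meal, stores it as glycogen, burns it to pyruvate or turns it to fat, and makes glucose from lactate and amino acids in fasting. Opposing steps are run by different enzymes: hexokinase by glucose 6-phosphatase, phosphofructokinase by fructose bisphosphatase, and pyruvate kinase by pyruvate carboxylase with phosphoenolpyruvate carboxykinase. Several steps have a hepatocyte form, such as L-type pyruvate kinase from Pklr, and a form used in blood cells, mesenchymal cells and dividing cells, such as M-type pyruvate kinase from Pkm.

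Each value below is the authors' mean of the normalized counts of a group. No value of a single mouse was analysed and the authors' p-values were not used, so no test was made here, and no ratio below is set against the spread between mice. A gene is called higher or lower where the ratio of 2 means reached 1.5-fold, among the 11784 genes whose 3 means averaged at least 1. All 42 genes passed that filter, with averages from 1.13 to 874. The first comparison asks what DEN + WAD went with in Scd2f/f liver, and the second what the loss of Scd2 in Col1a1-expressing cells went with under DEN + WAD. Both use the DEN + WAD Scd2f/f means, so a chance deviation there would enter both with opposite sign. Scd2, the targeted gene, had means of 2.46 in untreated Scd2f/f, 6.47 in DEN + WAD Scd2f/f and 1.87 in Scd2f/f;CC, which was 3.46-fold lower in Scd2f/f;CC than in DEN + WAD Scd2f/f.

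Promoter sequences are shown for the genes with the widest knockout ratios, G6pc and Pfkfb3, and for the pyruvate kinase pair, whose forms had opposite ratios between untreated and DEN + WAD liver. They are the 250 bases before the RefSeq start on GRCm38.p6 (mm10), read along the gene's strand, with every match on either strand to 5 motifs in capitals. The motifs are the TATA box, searched as TATAAA, the GC box, searched as GGGCGG, the E-box, searched as CACGTG, the core of the cAMP response element, searched as TGACG, and the E-box variant of carbohydrate response elements, searched as CACGGG. G6pc, for the catalytic subunit of glucose 6-phosphatase, lies on the forward strand, and its window is chr11:101367466-101367715. That of Pfkfb3 is chr2:11553930-11554179 on the reverse strand. The windows of Pklr, at the downstream of its 2 starts, and of Pkm are chr3:89136373-89136622 and chr9:59656326-59656575, both on the forward strand.
G6pc: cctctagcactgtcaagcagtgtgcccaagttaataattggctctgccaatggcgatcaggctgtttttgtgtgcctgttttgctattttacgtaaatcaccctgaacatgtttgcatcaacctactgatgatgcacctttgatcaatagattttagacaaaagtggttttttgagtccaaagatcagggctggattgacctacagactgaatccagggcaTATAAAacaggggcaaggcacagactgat
Pfkfb3: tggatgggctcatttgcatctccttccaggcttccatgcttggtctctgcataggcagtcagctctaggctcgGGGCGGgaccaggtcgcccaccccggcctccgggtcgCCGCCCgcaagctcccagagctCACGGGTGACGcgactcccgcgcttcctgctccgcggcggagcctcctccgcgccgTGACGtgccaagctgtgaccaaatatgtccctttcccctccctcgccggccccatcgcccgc
Pklr: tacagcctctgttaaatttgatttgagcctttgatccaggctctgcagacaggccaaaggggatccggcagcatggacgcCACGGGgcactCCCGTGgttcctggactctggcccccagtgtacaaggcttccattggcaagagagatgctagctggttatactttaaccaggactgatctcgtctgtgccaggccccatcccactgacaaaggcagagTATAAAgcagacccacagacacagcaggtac
Pkm: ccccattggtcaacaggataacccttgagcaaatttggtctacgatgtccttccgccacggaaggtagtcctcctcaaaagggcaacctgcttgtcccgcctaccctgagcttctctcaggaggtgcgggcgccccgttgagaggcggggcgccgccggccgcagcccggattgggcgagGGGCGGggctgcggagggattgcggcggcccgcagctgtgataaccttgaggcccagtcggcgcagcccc
G6pc and Pklr each held a TATA box, beginning at position -29 and -31 from the start, and neither held a GC box. Pkm held 1 GC box, at position -70, and no TATA box. Pfkfb3 held 2 GC boxes, 2 matches to TGACG and 1 to CACGGG. Pklr held 2 matches to CACGGG, which face each other. Over windows that run to 50 bases past each start, 41 of the 43 genes had an entry (Gys2 and Ppp1r3b had none). GGGCGG stood in 27 of the 41 genes (65.9%), against 38.2% of all 27025 genes with an entry. That background, used for all 5 motifs, was not limited to the genes tested in liver, so the sets compared are unlike. CACGGG stood in 11 (26.8%, against 11.4%) and CACGTG in 7 (17.1%, against 8.09%). TATAAA stood in 5 (12.2%, against 15.7%) and TGACG in 9 (22.0%, against 23.0%). Matches of different motifs may overlap, a gene with several starts counts once, and a match is not a known site.

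In DEN + WAD against untreated Scd2f/f, 10 of the 42 genes were at least 1.5-fold higher (23.8%, against 12.8% of all genes tested) and 5 were at least 1.5-fold lower (11.9%, against 8.6%). The other 27 were within 1.5-fold, and the median log2 ratio of the 42 was 0.14, against 0.03 over all genes. The genes called higher were Hk1, Hk2, Hk3, Pfkl, Pfkp, Pkm, Pcx, Pygb, Ppp1r3c and G6pdx, and those called lower were Aldoc, Pfkfb1, Pfkfb2, Eno3 and Pklr. Eno3 passed the filter on level only through its untreated mean, so the filter favored that call. Pklr, at 1.52-fold lower, was the nearest inside the limit, and Ppp1r3b, at 1.499-fold lower, was the nearest outside.

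In Scd2f/f;CC against DEN + WAD Scd2f/f, 2 of the 42 genes were higher (4.76%, against 2.35% of all genes tested) and 5 were lower (11.9%, against 4.9%). The 2 were G6pc and Ppp1r3b, and the 5 were Pfkfb3, Aldoc, Pkm, Hk1 and Pfkp. Pfkp stood exactly at 1.5-fold and Hk1 at 1.502-fold, while Pgd at 1.49-fold lower and G6pdx at 1.44-fold lower were just outside. The median log2 ratio was -0.09, against 0.01 over all genes. Of the 42, 17 were above 0 and 25 below, against 5957 and 5698 of all 11784 genes. Against untreated Scd2f/f, Scd2f/f;CC had 9 genes higher (21.4%, against 10.9%) and 5 lower (11.9%, against 7.71%), with a median of 0.06.

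**Figure D1:**
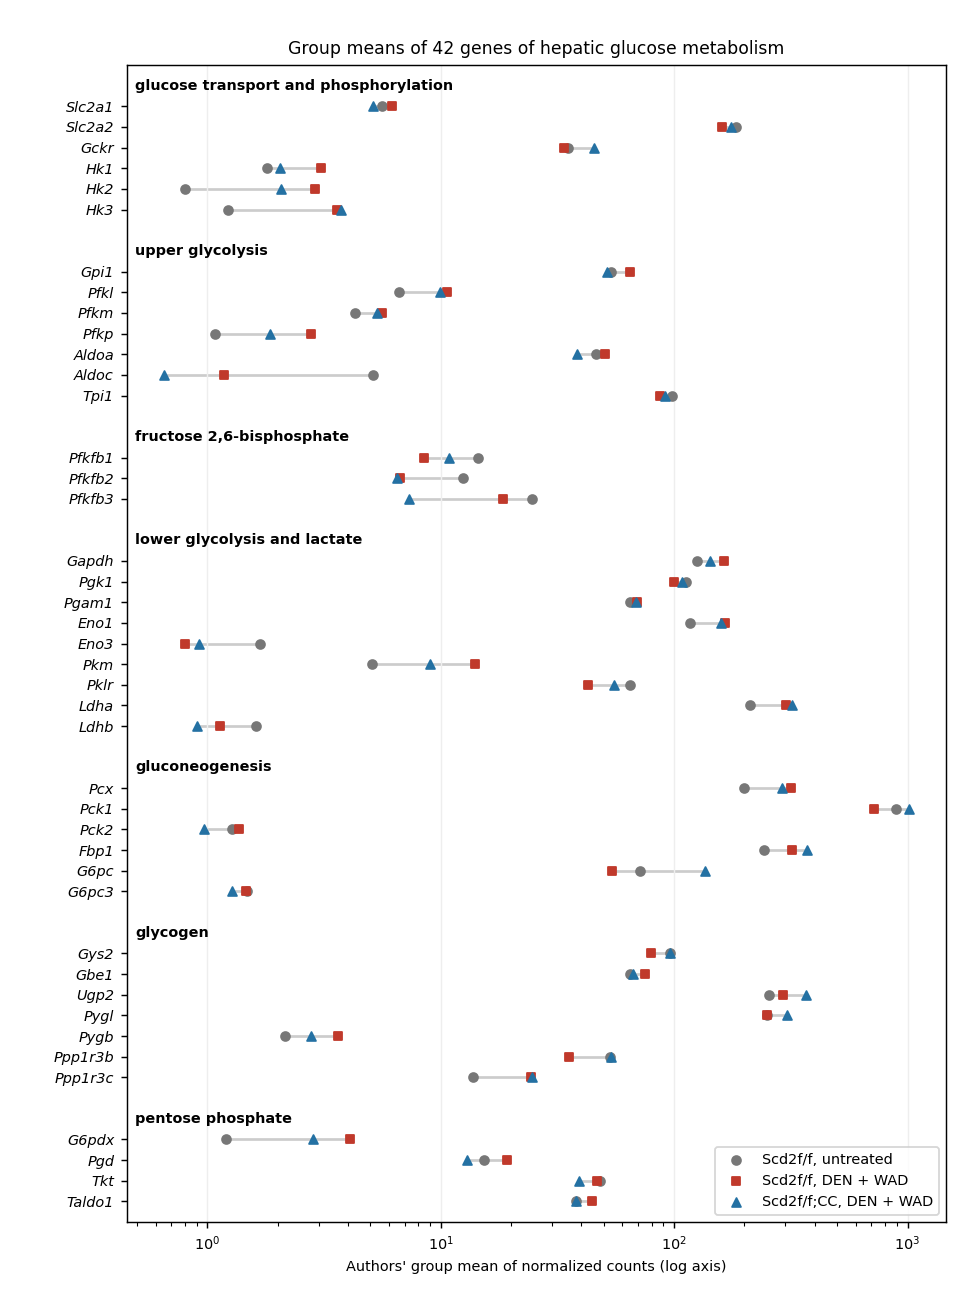
Authors' group mean of normalized counts (log axis) of 42 genes in role order, with circles for untreated Scd2f/f, squares for DEN + WAD Scd2f/f and triangles for Scd2f/f;CC; each point is a mean of 3 mice whose spread is not shown. G6pc lies at 71.2, 54.2 and 136 in this order, and Pkm at 5.06, 14.0 and 8.98.

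The calls lay mostly among genes of low level. Of the 26 genes whose means averaged at least 10, 2 were higher and 2 lower in DEN + WAD Scd2f/f (7.69% each), against 7.64% and 8.02% of all genes at that level. Of the 16 genes averaging from 1 to under 10, 8 were higher (50%, against 17.5%) and 3 lower (18.8%, against 9.13%). In Scd2f/f;CC against DEN + WAD Scd2f/f, 14 of these 16 had a log2 ratio below 0, against 3262 of all 6198 genes at that level. The median of the 16 was -0.35, and 4 were called lower (25%, against 7.71%). The 26 genes of higher level had a median of 0.08 there, with 2 called higher (7.69%, against 1.83% of all genes at that level) and 1 lower (3.85%, against 1.79%). The medians of all genes also had opposite signs in that comparison, 0.02 at the higher level and -0.02 at the lower level.

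Among the 6 genes of glucose transport and phosphorylation, 3 were higher in DEN + WAD than in untreated Scd2f/f (50%, against 12.8% of all genes tested). Slc2a2, the hepatocyte glucose transporter GLUT2, had means of 184 in untreated Scd2f/f, 161 in DEN + WAD Scd2f/f and 175 in Scd2f/f;CC. Slc2a1, the transporter GLUT1 of most other cells, had 5.62, 6.20 and 5.11 in the same order, which holds for every set of 3 values below. Neither reached 1.5-fold in any comparison. The hexokinases of high glucose affinity, which hepatocytes largely lack, were all higher in DEN + WAD Scd2f/f than in untreated liver. Hk2, at chr6:82725025-82774454, had 0.804, 2.89 and 2.07, which was 3.59-fold higher in DEN + WAD Scd2f/f. Hk3, the hexokinase of myeloid cells, had 1.23, 3.59 and 3.74, 2.92-fold higher. Hk1, the hexokinase of red cells and brain, had 1.81, 3.08 and 2.05, 1.70-fold higher and then 1.502-fold lower in Scd2f/f;CC. Of the 3, Hk3 was the 1 whose mean was not lower in Scd2f/f;CC than in DEN + WAD Scd2f/f. Gckr had 35.2, 33.6 and 45.4, a log2 ratio of 0.43 in Scd2f/f;CC against DEN + WAD Scd2f/f that stayed within 1.5-fold.

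In upper glycolysis, the 3 phosphofructokinase genes all had their highest mean in DEN + WAD Scd2f/f. Pfkl, the liver form, had 6.61, 10.6 and 9.88, higher by a log2 ratio of 0.68 in DEN + WAD Scd2f/f than in untreated liver. Pfkp, the platelet form, had 1.08, 2.79 and 1.86, 2.58-fold higher, and Pfkm, the muscle form, had 4.30, 5.58 and 5.31, within the limit. Of the 42 genes, 10 share at least 100 exonic bases with another gene, so part of their counts could belong to it, and Pfkp shares 748 with Pitrm1 on the other strand. Aldoc, the brain form of aldolase, at chr11:78322968-78327781, had 5.11, 1.18 and 0.652. It had the lowest ratio of the 42 genes against untreated liver, 4.33-fold lower in DEN + WAD Scd2f/f and 7.84-fold lower in Scd2f/f;CC. Between the DEN + WAD groups it was 1.81-fold lower in Scd2f/f;CC. Aldoa, the aldolase of muscle and most other tissues, had 46.3, 50.7 and 38.4. Gpi1, phosphoglucose isomerase, had 53.5, 64.8 and 51.4, and Tpi1, triosephosphate isomerase, had 97.5, 87.4 and 91.1. These housekeeping steps stayed within 1.5-fold in all 3 comparisons.

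Fructose 2,6-bisphosphate speeds phosphofructokinase and slows fructose bisphosphatase, and the PFKFB enzymes make and remove it. All 3 genes had lower means in DEN + WAD than in untreated Scd2f/f. Pfkfb1, the liver form, had 14.4, 8.44 and 10.9, 1.71-fold lower in DEN + WAD Scd2f/f. Pfkfb2, the heart form, had 12.4, 6.70 and 6.47, 1.85-fold lower. Pfkfb3, the form whose kinase activity far exceeds its phosphatase activity, at chr2:11471433-11554077, had 24.7, 18.4 and 7.30. It was 2.52-fold lower in Scd2f/f;CC than in DEN + WAD Scd2f/f, the lowest log2 ratio of the 42 genes in that comparison (-1.33), and 3.38-fold lower than in untreated liver. Pfkfb2 shares 1262 exonic bases with Gm29427 on the same strand.

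In lower glycolysis, the common enzymes stayed within 1.5-fold in all 3 comparisons. Gapdh had 125, 164 and 142, Pgk1, phosphoglycerate kinase, had 112, 99.6 and 108, and Pgam1, phosphoglycerate mutase, had 64.8, 69.2 and 68.5. Eno1, the common enolase, had 117, 166 and 159, a log2 ratio of 0.50 in DEN + WAD against untreated Scd2f/f. Eno3, the muscle enolase, had 1.68, 0.803 and 0.917, 2.09-fold lower in DEN + WAD Scd2f/f. Both DEN + WAD means were under 1, so Eno3 passed the filter on level only through its untreated mean. The filter thus favored its calls as lower, and it is in the counts of genes called lower against untreated liver. Its level went with the skeletal muscle markers Ckm, Acta1, Myh4, Tnnt3 and Mylpf, whose means lay between 3.61 and 11.5 in untreated liver and at or below 0.252 in both DEN + WAD groups. The part of muscle RNA in the Eno3 ratio was not tested.

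The pyruvate kinases had opposite ratios. Pkm, at chr9:59656368-59679375, had 5.06, 14.0 and 8.98, 2.77-fold higher in DEN + WAD than in untreated Scd2f/f and 1.56-fold lower in Scd2f/f;CC than in DEN + WAD Scd2f/f. Pklr, at chr3:89136142-89146784, had 64.8, 42.6 and 55.3, 1.52-fold lower in DEN + WAD Scd2f/f. Its log2 ratio in Scd2f/f;CC against DEN + WAD Scd2f/f was 0.38, within the limit. Pkm shares 767 exonic bases with Gm49759 on the same strand. Pklr shares 711 exonic bases (22.0%) with Hcn3 on the other strand, whose means were 7.01, 4.63 and 4.30, and the library kit kept no strand. Ldha, the main lactate dehydrogenase of liver, had 212, 301 and 321, 1.42-fold higher in DEN + WAD Scd2f/f and 1.51-fold higher in Scd2f/f;CC than in untreated liver. Ldhb, the heart form, had 1.62, 1.13 and 0.907, 1.79-fold lower in Scd2f/f;CC than in untreated liver. Eno1, Ldha, Pgam1 and Pgk1 have near-identical copies in the table (Eno1b, Ldha-ps2, Pgam1-ps2 and Pgk1-rs7), and reads may have been split between them. Eno1b had 7.57, 5.92 and 1.75, and Ldha-ps2 2.66, 3.51 and 3.43, small beside the means of Eno1 and Ldha.

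**Figure D2:**
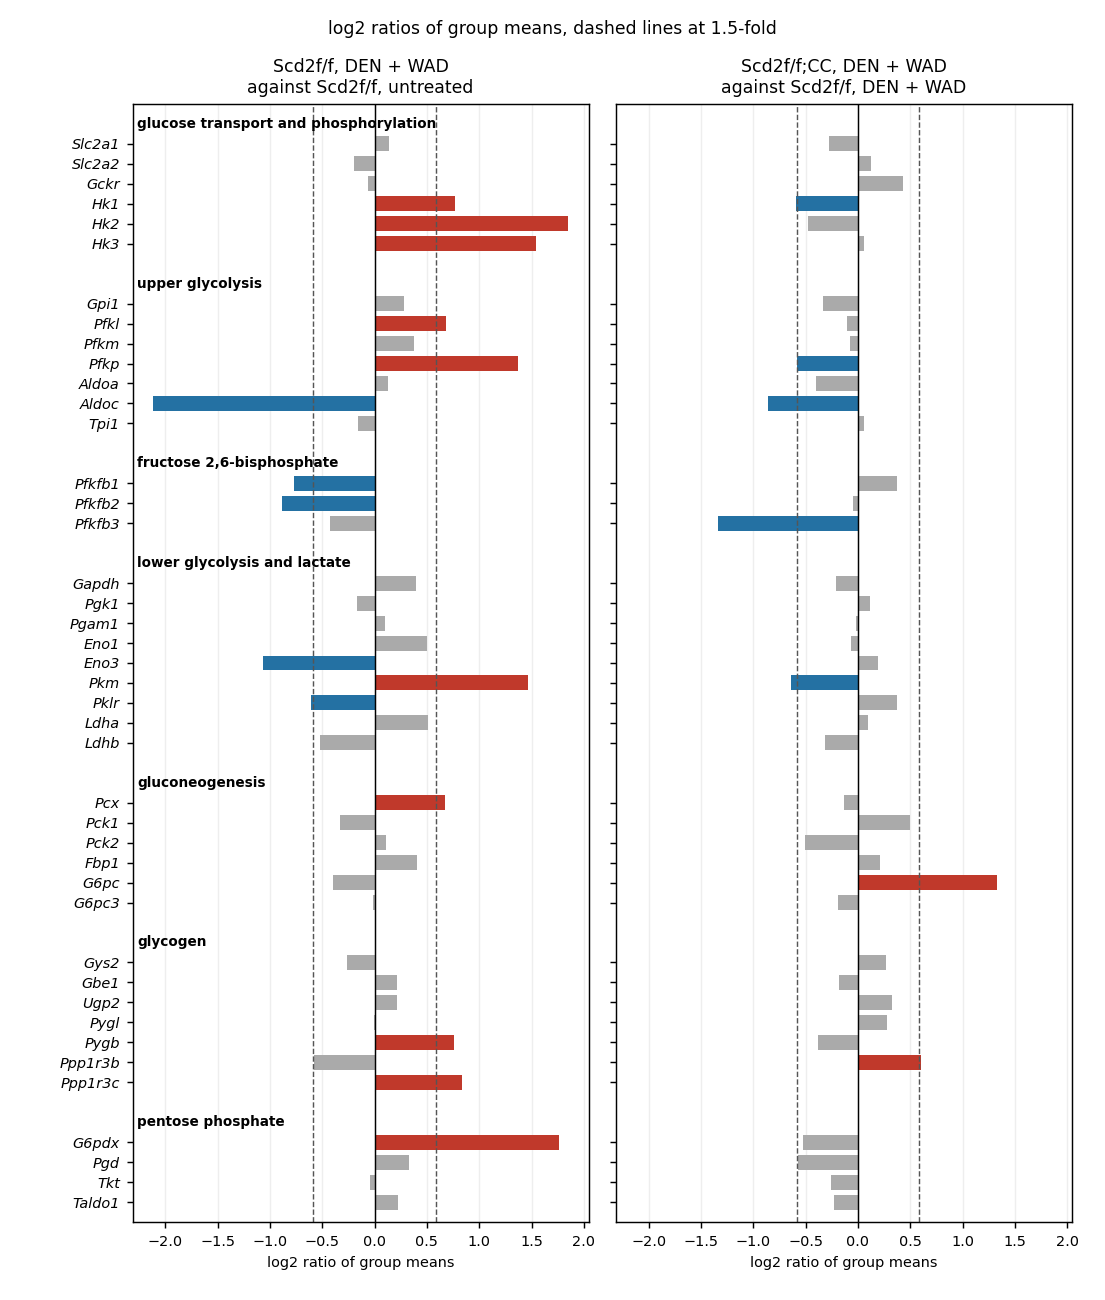
log2 ratio of group means of the 42 genes for DEN + WAD against untreated Scd2f/f (left) and Scd2f/f;CC against Scd2f/f under DEN + WAD (right); red bars are at least 1.5-fold higher, blue at least 1.5-fold lower, grey within the dashed lines. On the right G6pc reaches 1.33 and Pfkfb3 -1.33. There 14 of the 16 genes of low level lie below 0, against 3262 of all 6198 genes at that level.

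Of the 6 gluconeogenic genes, G6pc, at chr11:101367561-101377903, had 71.2, 54.2 and 136, 2.51-fold higher in Scd2f/f;CC than in DEN + WAD Scd2f/f and 1.91-fold higher than in untreated liver. This was the highest ratio of the 42 genes between the DEN + WAD groups. Its ubiquitous relative G6pc3 had 1.48, 1.46 and 1.28. Pck1, cytosolic phosphoenolpyruvate carboxykinase and the gene of highest level per length in every group, had 897, 715 and 1010, a log2 ratio of 0.50 in Scd2f/f;CC against DEN + WAD Scd2f/f that stayed within 1.5-fold. The mitochondrial Pck2 had 1.27, 1.37 and 0.967. Fbp1, fructose bisphosphatase, had 242, 320 and 371, 1.53-fold higher in Scd2f/f;CC than in untreated liver. Pcx, pyruvate carboxylase, had 199, 317 and 289, 1.59-fold higher in DEN + WAD Scd2f/f. Pck1, Fbp1 and G6pc had their highest mean in Scd2f/f;CC, while Pcx had its highest in DEN + WAD Scd2f/f. Of these genes, G6pc alone passed 1.5-fold between the DEN + WAD groups.

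In Scd2f/f;CC all 7 glycogen genes had means at or above those of untreated liver, from a log2 ratio of 0.00 to 0.84. Of all 11784 genes, 6397 had a log2 ratio above 0 in that comparison. Gys2, Gbe1 and Ppp1r3b were nearly unchanged there, with log2 ratios of 0.003, 0.04 and 0.02. Of 15 other glycogen genes, 10 were above 0 and 5 below in that comparison. Among them 2 were called higher and 2 lower (13.3% each, against 10.9% and 7.71% of all genes tested). Gys2, the liver glycogen synthase, had 96.1, 79.8 and 96.3, and Gbe1, the branching enzyme, had 64.9, 75.4 and 66.6. Ugp2, which makes UDP-glucose, had 254, 294 and 369, and Pygl, the liver glycogen phosphorylase, had 251, 250 and 304. None of these reached 1.5-fold. Pygb, the brain phosphorylase, had 2.15, 3.63 and 2.78, 1.69-fold higher in DEN + WAD than in untreated Scd2f/f. The proteins that bring protein phosphatase 1 to glycogen had unlike patterns. Ppp1r3b, the main one of liver, had 52.9, 35.3 and 53.6, 1.52-fold higher in Scd2f/f;CC than in DEN + WAD Scd2f/f. Ppp1r3c had 13.7, 24.4 and 24.5, 1.78-fold higher in DEN + WAD Scd2f/f and of like mean in Scd2f/f;CC.

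All 4 pentose phosphate genes had lower means in Scd2f/f;CC than in DEN + WAD Scd2f/f, with a median log2 ratio of -0.39, and none reached 1.5-fold there. G6pdx, the NADPH-producing first enzyme, at chrX:74409483-74429194, had 1.20, 4.08 and 2.83, 3.40-fold higher in DEN + WAD than in untreated Scd2f/f and 1.44-fold lower in Scd2f/f;CC. G6pdx shares 418 exonic bases with Ikbkg on the other strand, whose means were 30.6, 38.6 and 34.5. Pgd, the second NADPH-producing enzyme, had 15.3, 19.2 and 12.9. Tkt, transketolase, had 48.3, 46.8 and 39.2, and Taldo1, transaldolase, had 38.0, 44.5 and 38.1. G6pdx was the 1 gene of the 4 past the limit between untreated and DEN + WAD Scd2f/f.

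Levels of different genes were compared as group means per kb of the longest principal transcript. Pck1 was highest of the 42 genes in all 3 groups, followed by Fbp1 and then Ldha. Pck1 stood at 337, 269 and 380 per kb, and Fbp1 at 164, 216 and 251 per kb. G6pc was 16th in untreated Scd2f/f, 18th in DEN + WAD Scd2f/f and 11th in Scd2f/f;CC, at 29.5, 22.5 and 56.3 per kb. Aldoc was 29th in untreated liver and 41st in both DEN + WAD groups. Neighbours in this order were not set against the spread between mice.

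The share of a second form in a pair of forms was computed per kb, for 11 of 12 pairs. Pkm made up 8.52% of Pkm and Pklr in untreated Scd2f/f, 28.2% in DEN + WAD Scd2f/f and 16.2% in Scd2f/f;CC. The Pkm to Pklr ratio was 4.21-fold higher in DEN + WAD than in untreated Scd2f/f and 2.02-fold lower in Scd2f/f;CC than in DEN + WAD Scd2f/f. Pkm thus stayed the smaller part in every group. The ratio of the second form to the first passed 1.5-fold in 6 of the 11 pairs between untreated and DEN + WAD Scd2f/f. Aldoc made up 5.65% of Aldoc and Aldoa in untreated liver, 1.25% in DEN + WAD Scd2f/f and 0.912% in Scd2f/f;CC. Ldhb made up 1.02%, 0.506% and 0.381% of Ldhb and Ldha, and Eno3 1.83%, 0.623% and 0.742% of Eno3 and Eno1. Pygb made up 0.615%, 1.04% and 0.657% of Pygb and Pygl. Pfkp made up 12.8%, 19.1% and 14.5% of Pfkp and Pfkl. The share of the Pkm, Pygb and Pfkp forms was highest in DEN + WAD Scd2f/f, and that of Aldoc, Ldhb and Eno3 was highest in untreated liver. Pfkfb3 made up 39.2%, 45.0% and 20.1% of Pfkfb3 and Pfkfb1, and its ratio to Pfkfb1 was 3.26-fold lower in Scd2f/f;CC than in DEN + WAD Scd2f/f. G6pc3 made up 3.09%, 3.97% and 1.42% of G6pc3 and G6pc, and Pck2 0.0814%, 0.110% and 0.0551% of Pck2 and Pck1. In these pairs the hepatocyte form had its largest part in Scd2f/f;CC. Slc2a1 made up 4.96%, 6.17% and 4.75% of both transporters, and Pfkm 45.7%, 40.5% and 41.0% of Pfkm and Pfkl, with neither ratio past 1.5-fold.

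**Figure D3:**
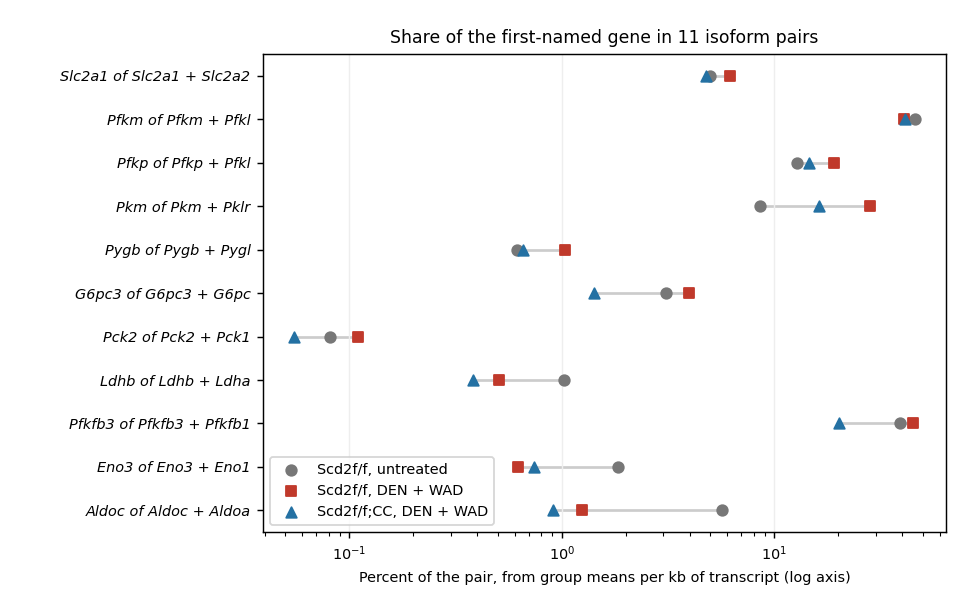
Share of the first-named gene in each of 11 pairs of forms, in percent of the summed group means per kb of transcript (log axis), with circles for untreated Scd2f/f, squares for DEN + WAD Scd2f/f and triangles for Scd2f/f;CC. Pkm lies at 8.52%, 28.2% and 16.2% of Pkm and Pklr, and Aldoc at 5.65%, 1.25% and 0.912% of Aldoc and Aldoa.

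The scarce forms are known from cells other than hepatocytes, so marker lists were read beside them. The 10 macrophage markers summed to 101 in untreated Scd2f/f, 403 in DEN + WAD Scd2f/f and 324 in Scd2f/f;CC. Of the 9 with a mean of at least 1, 9 were higher in DEN + WAD than in untreated Scd2f/f (against 12.8% of all genes). Of the same 9, 4 were lower in Scd2f/f;CC than in DEN + WAD Scd2f/f (against 4.9%). Cx3cr1 (0.256, 2.54 and 0.482) and Itgax (0.235, 3.66 and 1.12) passed that filter only through their DEN + WAD Scd2f/f mean. Both are in both counts, so the filter favored these calls. The 10 stellate cell and fibroblast markers summed to 202, 342 and 196, and of the 9 past that filter, 5 were higher in DEN + WAD Scd2f/f and 7 lower in Scd2f/f;CC. Both sums were highest in DEN + WAD Scd2f/f, as were the means of Hk1, Hk2, Pfkp, Pkm, Pygb and G6pdx. The mean of Hk3 was instead highest in Scd2f/f;CC. A highest mean in DEN + WAD Scd2f/f was not particular to scarce forms. Pcx, Gapdh, Eno1, Gpi1, Aldoa, Gbe1 and Taldo1 had it too. The 6 proliferation markers summed to 3.63, 16.6 and 9.54, the 6 neutrophil and monocyte markers to 1.91, 9.08 and 6.30, and the 8 T and B cell markers to 1.71, 5.29 and 3.67. The 8 endothelial markers summed to 120, 160 and 161. The 6 cholangiocyte markers summed to 64.3, 59.2 and 25.6, lowest in Scd2f/f;CC like Pfkfb3 and Aldoc. The 11 hepatocyte markers summed to 45933, 46245 and 51816, so the labelled tissue carried its defining genes in every group. Alb alone had 21300, 20900 and 22700 of these sums. In DEN + WAD against untreated Scd2f/f, 5 of the 11 had a log2 ratio above 0 and 6 below. There 0 were called higher (against 12.8%) and 2 lower (18.2%, against 8.6%), Apoa1 (4730, 2890 and 3680) and Tat (499, 181 and 305). Between the DEN + WAD groups Tat alone was called, as higher in Scd2f/f;CC (9.09%, against 2.35%). The 7 erythroid markers summed to 321, 126 and 224 and the 6 skeletal muscle markers to 42.6, 3.81 and 2.36. No marker was at 0 in any group. However, Myh4 and Tnnt3 stood at the lowest mean of all genes in DEN + WAD Scd2f/f (0.0348) and in Scd2f/f;CC (0.0349). Des, which the stellate cell list also holds, made up 4.25, 3.29 and 1.98 of the muscle sums. The part of these cells in the ratios of the metabolic genes was not tested, and in bulk tissue fewer cells of a type and less RNA per cell cannot be told apart.

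**Figure D4:**
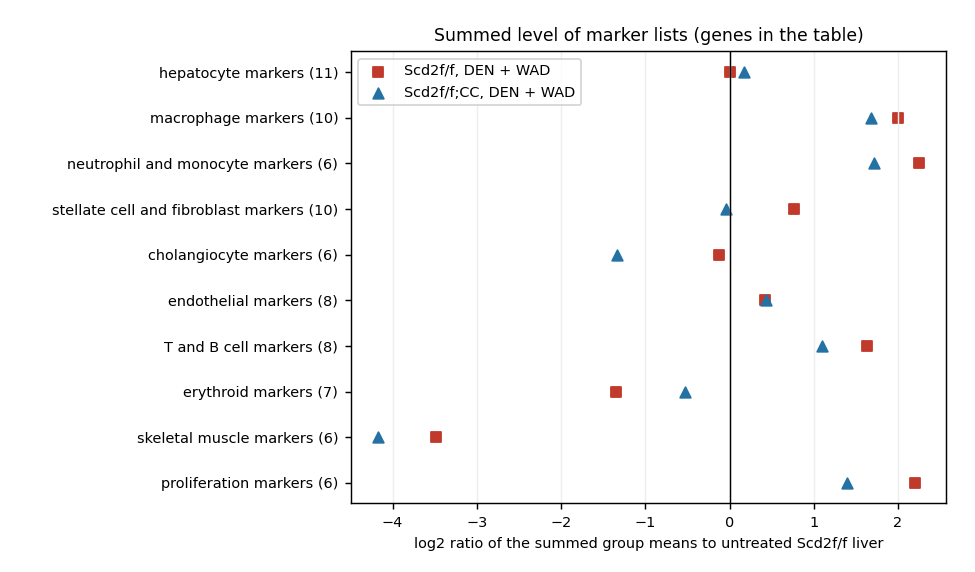
log2 ratio of the summed group means of each marker list to untreated Scd2f/f liver, with squares for DEN + WAD Scd2f/f and triangles for Scd2f/f;CC and the number of markers in the table in parentheses. The macrophage sum is 3.99 times the untreated sum in DEN + WAD Scd2f/f and 3.21 times in Scd2f/f;CC.

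Other genes of the same pathways were read from a list of 92, of which 84 were in the table and 77 passed the filter on level. Of the 77, 5 were higher and 8 lower in DEN + WAD than in untreated Scd2f/f (6.49% and 10.4%), with 3 higher and 3 lower in Scd2f/f;CC than in DEN + WAD Scd2f/f (3.90% each). Of all genes tested, 12.8% were higher and 8.6% lower in the first comparison, and 2.35% higher and 4.9% lower in the second. The share of the 77 called higher in DEN + WAD Scd2f/f was thus below that of all genes. Slc37a4, the transporter that brings glucose 6-phosphate to G6pc, had 62.0, 30.8 and 36.3, 2.01-fold lower in DEN + WAD Scd2f/f. In Scd2f/f;CC it thus stayed near its DEN + WAD Scd2f/f mean, unlike G6pc. Of 15 other glycogen genes, Ppp1r3g, a phosphatase-targeting protein of liver, had 0.674, 0.907 and 2.31, 2.55-fold higher in Scd2f/f;CC than in DEN + WAD Scd2f/f. It passed the filter only through its Scd2f/f;CC mean, so the filter favored this call, which is among the 3 higher in that comparison. Stbd1, which binds glycogen for breakdown, had 50.8, 33.0 and 23.3. None of 7 other pentose phosphate genes passed the limit in any comparison. Of 12 genes of pyruvate and lactate handling, Slc16a7, a monocarboxylate transporter, had 33.9, 74.1 and 65.4, 2.19-fold higher in DEN + WAD Scd2f/f, and Pdk1, a kinase that shuts pyruvate dehydrogenase, had 43.7, 27.5 and 32.1, 1.59-fold lower.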

How the data were processed

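The samples were grouped from the labels as untreated Scd2f/f, DEN + WAD Scd2f/f and DEN + WAD Scd2f/f;Col1a1-Cre. The deposited signal is, per gene and group, a least-squares mean of upper-quartile-normalized counts that the authors made with Partek Flow and Gencode M3, with reads from an unstranded poly(A) kit. The submitters' processing notes name STAR 2.6.1, Partek 6 and mm10. Depth per sample is unknown here, and precision cannot be given. The table's columns of the authors' own comparisons (p-values, ratios, fold changes) were not used. Ratios of means were computed with no pseudocount and with Python 3.11.15, pandas 2.3.3, NumPy 2.4.6 and Matplotlib 3.10.9, by a script tested on simulated data. Coordinates are those of the table (mm10). Every member is named. Other genes are named where past 1.5-fold, besides Scd2 and near-identical or overlapping genes. A result of the wider list is not reported here. Members and lists were chosen with earlier results of these data known. Transcript lengths and overlaps of at least 100 exonic bases came from Gencode M21. Alternatives were other fold limits, filters, pseudocounts, centring and protein-coding genes alone.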

Additional observations from a re-analysis of the deposited data

How the results depend on the processing

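With a 2-fold limit, 5 of the 42 genes were higher and 2 lower in DEN + WAD against untreated Scd2f/f (6.40% and 2.89% of all genes), 1 higher and 1 lower in Scd2f/f;CC against DEN + WAD Scd2f/f (0.645% and 1.54%), and 3 higher and 2 lower in Scd2f/f;CC against untreated Scd2f/f (4.51% and 2.55%). With a 1.3-fold limit, chosen after seeing the data, the counts in the same order were 14 higher and 9 lower (20.9% and 16.4% of all genes), 4 and 11 (6.14% and 9.80%), and 13 and 7 (19.4% and 15.2%). With a filter at a mean of at least 10, which keeps 26 genes, they were 2 and 2 (7.64% and 8.02% of all genes), 2 and 1 (1.83% and 1.79%), and 4 and 1 (7.41% and 6.93%). The median of the second comparison then turned from -0.0865 to 0.0763, and 0 pairs of forms passed 1.5-fold between untreated and DEN + WAD Scd2f/f, since each had a gene under that filter or did not pass. A pseudocount of 0.1 left 3 genes lower in the second comparison, and a pseudocount of 1 left 2 there and 3 in the third. Over the 3 comparisons, pseudocounts of 0.1 and 1 took 2 and 9 calls under the limit. Centring on the median of all genes took 2, Ldha and Fbp1 in Scd2f/f;CC against untreated Scd2f/f, and put Ppp1r3b past it as lower in DEN + WAD Scd2f/f. Keeping protein-coding genes alone or dropping the filter on the mean left the counts of the 42 genes as they were. Without the filter, however, the shares of all genes in Scd2f/f;CC against DEN + WAD Scd2f/f became 5.72% higher and 9.82% lower, so that the 4.76% of the 42 genes called higher lay below the background. Leaving out each mouse was not run, because no single-mouse value was used here. No paired analysis was possible because the values are means of whole groups.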

Other observations

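Of 21 regulators of hepatic glucose genes in the table, 2 were at least 1.5-fold higher and 1 lower in DEN + WAD than in untreated Scd2f/f. These shares, 9.52% and 4.76%, were below the 12.8% and 8.6% of all genes tested. Txnip, a glucose-responsive inhibitor of glucose uptake, had means of 46.8 in untreated Scd2f/f, 80.2 in DEN + WAD Scd2f/f and 56.0 in Scd2f/f;CC. Trib3, a stress-induced pseudokinase, had 3.88, 6.45 and 4.30 in the same order. Mlx, the partner with which the carbohydrate-response factor ChREBP binds DNA, had 21.5, 12.4 and 13.3, 1.73-fold lower in DEN + WAD Scd2f/f. Srebf1, a transcription factor of fat synthesis that insulin induces, had 60.3, 67.7 and 108, higher by a log2 ratio of 0.67 in Scd2f/f;CC than in DEN + WAD Scd2f/f and past the limit. Irs2, an adaptor of the insulin receptor, had 13.5, 14.0 and 20.5, and Mlxipl, which encodes ChREBP, had 52.9, 66.1 and 82.5. Both were within 1.5-fold between the DEN + WAD groups and past it between Scd2f/f;CC and untreated Scd2f/f. None of these values was tested here.

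Of 11 genes by which fructose, galactose and polyols enter glycolysis, 1 was higher and 2 were lower in DEN + WAD than in untreated Scd2f/f. The shares were 9.09% and 18.2%, against 12.8% and 8.6% of all genes tested. Galk1, galactokinase, had 14.4, 22.3 and 17.2. Tkfc, which phosphorylates the glyceraldehyde made from fructose, had 150, 99.0 and 117. Slc2a5, the fructose transporter, had 3.58, 2.33 and 3.70, 1.59-fold higher in Scd2f/f;CC than in DEN + WAD Scd2f/f.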
